A study of Mus musculus with 550 samples.

Results

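Cbr1, Cbr3 and Cbr4 are the carbonyl reductase genes followed here across 7 mouse organs. They are 3 named genes, each with a probe set annotated to that gene only, out of 17097 genes that could be tested. Cbr2, which shares the family name, was also measured and is not a member; it is counted below among the other carbonyl-reducing enzymes. The probe set of a gene was selected on its highest mean level in an organ, and as each member had a single one, no value decided between probe sets. The family itself was proposed with the response of Cbr3 in the kidney and jejunum already known, so its changes against vehicle in those organs are given below as a description, without a test. Comparisons of Cbr3 between dosed groups and between times in those organs use the same arrays. Their adjusted p-values describe the spread between arrays and are not independent of that choice. Cbr1, Cbr4 and the gene lists were also chosen with earlier results of these data known. Their calls and counts are therefore not independent of the choice either.

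RNA from C57BL/6 mice was hybridised to 550 oligonucleotide arrays, 1 array per animal and organ, 6 or 12 h after 1 dose. Dimethyl fumarate (DMF) was given at 100 or 179.2 mg/kg. Monoethyl fumarate (MEF) was given at 79.2 mg/kg as a mixture of its calcium, magnesium and zinc salts. The arrays fell into 77 groups of 3 to 8 by organ, time and treatment. A combined treatment among them, DMF+MEF, joined DMF at 100 mg/kg with the MEF salts according to the titles, while its source label names DMF only. Controls received the vehicle, hydroxypropyl methylcellulose, and undosed naive mice were included at 12 h. The organs were kidney (77 arrays; present in the labels but not in the series description), brain (86), whole blood (78), jejunum (76), spleen (72) and the lymph nodes of the mesentery (MLN, 88) and of the groin (ILN, inguinal, 73). All animals were of the same strain, and no genotype other than the strain was named. Where 4 values are listed they follow the order DMF 100 mg/kg, DMF 179.2 mg/kg, MEF and DMF+MEF.

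Carbonyl reductases are NADPH-dependent enzymes that turn aldehydes, ketones and quinones into alcohols. Cbr1 encodes a cytosolic enzyme of broad range that acts on prostaglandins, quinones and carbonyl-containing drugs, and is abundant in kidney and intestine. Cbr3 encodes a close relative with a narrower set of known substrates, and its gene lies beside Cbr1. Cbr4 encodes a mitochondrial enzyme that pairs with the product of Hsd17b8 in the reduction step of mitochondrial fatty acid synthesis. Fumaric acid esters are electrophiles that modify cysteines of KEAP1, the protein that holds the transcription factor NRF2 in check, and NRF2 raises many detoxification genes through antioxidant response elements in DNA.

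Cbr1 and Cbr3 moved in the same direction in the kidney and jejunum, and the stretch before each start site is shown so that the 3 members can be set beside one another. The sequences are those of RefSeq for mouse build GRCm38.p6, 250 bases up to the annotated start of transcription. All 3 genes lie on the forward strand. The windows are chr16:93607587-93607836 for Cbr1, chr16:93682969-93683218 for Cbr3 and chr8:61487484-61487733 for Cbr4. Capitals mark a match to TGANNNNGC.
Cbr1: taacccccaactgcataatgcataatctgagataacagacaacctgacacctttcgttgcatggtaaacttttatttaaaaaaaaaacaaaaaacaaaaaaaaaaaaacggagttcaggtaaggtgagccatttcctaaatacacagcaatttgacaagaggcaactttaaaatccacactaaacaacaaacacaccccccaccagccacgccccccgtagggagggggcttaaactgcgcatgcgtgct
Cbr3: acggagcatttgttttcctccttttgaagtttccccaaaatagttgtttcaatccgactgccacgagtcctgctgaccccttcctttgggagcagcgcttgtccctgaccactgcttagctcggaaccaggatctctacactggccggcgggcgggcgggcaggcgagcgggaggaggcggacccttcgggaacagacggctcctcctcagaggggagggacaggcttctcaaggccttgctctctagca
Cbr4: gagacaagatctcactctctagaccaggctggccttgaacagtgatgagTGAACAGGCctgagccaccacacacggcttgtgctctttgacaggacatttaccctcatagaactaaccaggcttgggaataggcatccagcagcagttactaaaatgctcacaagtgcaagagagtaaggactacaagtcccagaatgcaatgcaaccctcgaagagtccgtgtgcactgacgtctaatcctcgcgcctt
The core of the NRF2 element, TGACNNNGC, was searched on both strands. It occurred in 10.2% of 32851 mouse promoter windows of this length (3338 windows) and in none of the 3 members, nor in that of the NRF2 target Nqo1. The looser form TGANNNNGC, which includes every match to the first, occurred in 35.2%. Cbr4 alone of the 3 held it, once, starting 201 bases before the start. A missing match says only that these letters are not in these windows.

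The values are log2 probe set summaries, so 1 unit is a doubling. Each organ and time had been normalised as a separate set, and levels in different organs are therefore set side by side only as a rough order. A gene was called when limma's adjusted p, taken over all 17097 genes of a contrast, was below 0.05. The error given with a change is its standard error in the model, and that given with a level is the SD. Nothing in the labels says more of the animals than their numbers, and the p-values measure the spread between these arrays. In whole organs, fewer cells of a type and less RNA per cell cannot be told apart.

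The organs carried the markers their labels call for, such as Umod in kidney (11.45 to 13.09), Fabp2 in jejunum (13.92 to 14.30), Snap25 in brain (12.79 to 13.46), Spic in spleen (10.16 to 11.70), Cd3e in the nodes (11.08 to 12.22) and Alas2 in blood (13.60 to 14). Some arrays stood apart. In the jejunum, 4 arrays at 12 h, of which 3 were vehicle, had the distal intestine genes Hoxb6 and Hoxb9 at a mean above 6. Of the 76 jejunum arrays, 7 held the kidney gene Umod at 4.05 to 9.04, against 2.15 to 3.33 in the other 69, and none of the 7 was a vehicle array. The kidney gene Kap did not part them as clearly, at 5.24 to 12.14 in the 7 and 2.15 to 9.19 in the other 69. Vehicle array 57 at 6 h held Kap at 8.23. Leaving out the 7 therefore does not remove every array with a kidney gene. In the spleen, 19 arrays held RNA of pancreatic acinar or liver genes, and 4 of them were vehicle arrays, all at 6 h. Spleen arrays also reached 11.78 for the jejunum gene Fabp2 (median 2.19). MLN arrays reached 11.05 for the acinar gene Ctrb1 (median 2.44), and kidney arrays 11.77 for the liver gene Alb (median 6.90). No array was left out for these, and their part in the results was not tested. The adipocyte gene Adipoq ranged from 3.17 to 10.60 in the kidney, from 2.57 to 10.96 in the jejunum and from 3.23 to 12.50 in the nodes, and its part in the results was not tested. Animal numbers ran in blocks of 12, and the treatments held different places within them. Leaving out the arrays that stand apart is named beside a result where it ended a call. Comparisons within shared places, where a stretch of 4 neighbouring places had to hold 2 or more arrays on either side of the comparison, used fewer arrays, and the calls they ended are given with each gene.

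In vehicle animals Cbr1 was highest in the kidney and jejunum and lowest in blood at both times. Its mean levels at 12 h were 11.56 ± 0.08 (n = 8) in the kidney, 11.01 ± 0.37 (n = 8) in the jejunum, 9.60 ± 0.12 (n = 8) in the brain, 8.36 ± 0.19 (n = 7) in the spleen, 8.34 ± 0.27 (n = 4) in the ILN, 8.20 ± 0.14 (n = 8) in the MLN and 7.86 ± 0.28 (n = 7) in blood. Neighbours in this order among spleen, ILN and MLN differed by less than the larger SD of the pair. Cbr3 followed another order, with the brain highest (6.16 ± 0.19) and then MLN (5.53 ± 0.25), spleen (5.42 ± 0.49), kidney (4.78 ± 0.30), ILN (4.63 ± 0.31), jejunum (3.99 ± 0.24) and blood (3.01 ± 0.15). MLN and spleen, and kidney and ILN, were within their SD of each other. Cbr4 ranged least, from 8.94 ± 0.07 in the kidney through 8.20 ± 0.10 in the jejunum, 7.92 ± 0.15 in the ILN, 7.85 ± 0.13 in the brain, 7.81 ± 0.14 in the MLN and 7.44 ± 0.12 in the spleen to 6.10 ± 0.38 in blood. The ILN, brain and MLN values of Cbr4 lay within their SD. At 6 h the kidney, jejunum and brain kept the first 3 places for Cbr1, the brain was again highest for Cbr3 (7.22 ± 0.24), and the kidney was again highest for Cbr4 (9.56 ± 0.07). In blood Cbr3 was close to an unchanging background value: 34 of 41 arrays at 12 h lay within 0.02 of 3.07, and 24 of 37 at 6 h within 0.02 of 3.24.

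The 3 members answered to the fumarates in different ways. Cbr3 moved by several log2 units in the kidney and jejunum and by little elsewhere. Cbr1, already abundant, rose in the same organs by at most 1.21. Cbr4 was called lower in the kidney at 6 h and higher in the spleen, nodes and jejunum at 12 h. Naive arrays of the spleen and nodes were also above vehicle in Cbr4 at 12 h. Against vehicle, Cbr1 was called higher in 17 of 56 comparisons and lower in none, with 14 of the 16 comparisons in the kidney and jejunum and 3 of the 40 in other organs. Cbr4 was called higher in 5 and lower in 3. Outside the kidney and jejunum, Cbr3 was called higher in 2 of 40. Shares of all genes called in the same comparisons are printed with Cbr3 below, and these counts were not tested against them. In the spleen at 6 h and the lymph nodes at 12 h, members were called with the higher DMF dose, where that share was largest. In the spleen and brain at 12 h, Cbr4 and Cbr3 were called with that dose although its share was not the largest.

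**Figure D1:**
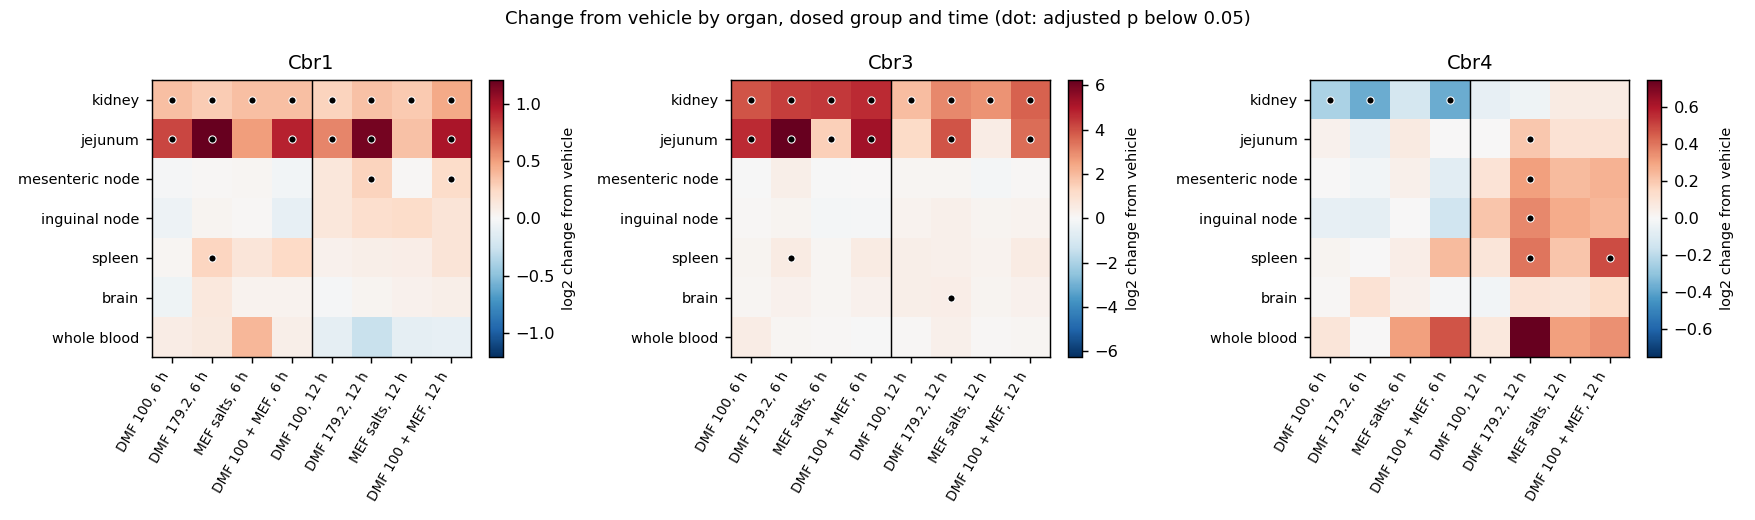
Log2 change against vehicle of the same organ and time for Cbr1, Cbr3 and Cbr4, with organs in rows, the 4 dosed groups at 6 and 12 h in columns and a colour scale of its own for each gene; dots mark an adjusted p below 0.05. The highest change of Cbr3 was 6.25, for DMF 179.2 mg/kg at 6 h in the jejunum, against 1.21 for Cbr1 in that same comparison. Dots of Cbr3 in the kidney and jejunum are not read as a test.

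Cbr3, the member with the widest range, stood at 5.21, 5.45 and 5.82 (lowest, median and highest) in 7 kidney vehicle arrays at 6 h. The 8 arrays of DMF 100 mg/kg gave 9.04, 9.39 and 9.71, and the 8 of DMF 179.2 mg/kg gave 9.42, 9.79 and 10.03. MEF gave 9.68, 9.84 and 10.19 (n = 8), and DMF+MEF 9.91, 10.10 and 10.43 (n = 7). No dosed array came near the vehicle range, and the 4 dosed groups overlapped in part, with DMF 100 mg/kg lowest and DMF+MEF highest. These differences from vehicle were 15.3-, 19.7-, 21.3- and 25.6-fold, and the share of all genes called in the same comparisons was 4.07%, 25%, 5.9% and 13.2%.

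At 12 h the kidney vehicle arrays of Cbr3 lay at 4.27, 4.78 and 5.32 (n = 8), and the naive arrays at 4.66, 4.95 and 5.06 (n = 6). DMF 100 mg/kg gave 6.25, 6.71 and 7.24 (n = 6), DMF 179.2 mg/kg 7.31, 7.75 and 8.28 (n = 8), and MEF 7.39, 7.61 and 7.77 (n = 7). The 4 DMF+MEF arrays were at 8.29, 8.22, 8.83 and 8.43. All dosed arrays still exceeded every vehicle array, and DMF 100 mg/kg no longer overlapped any other dosed group. The changes were 1.92 ± 0.13, 3.0 ± 0.12, 2.81 ± 0.13 and 3.67 ± 0.15, with 1.38%, 7.25%, 17.5% and 11% of all genes called. The change with DMF 100 mg/kg was 2.49 within shared places.

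**Figure D2:**
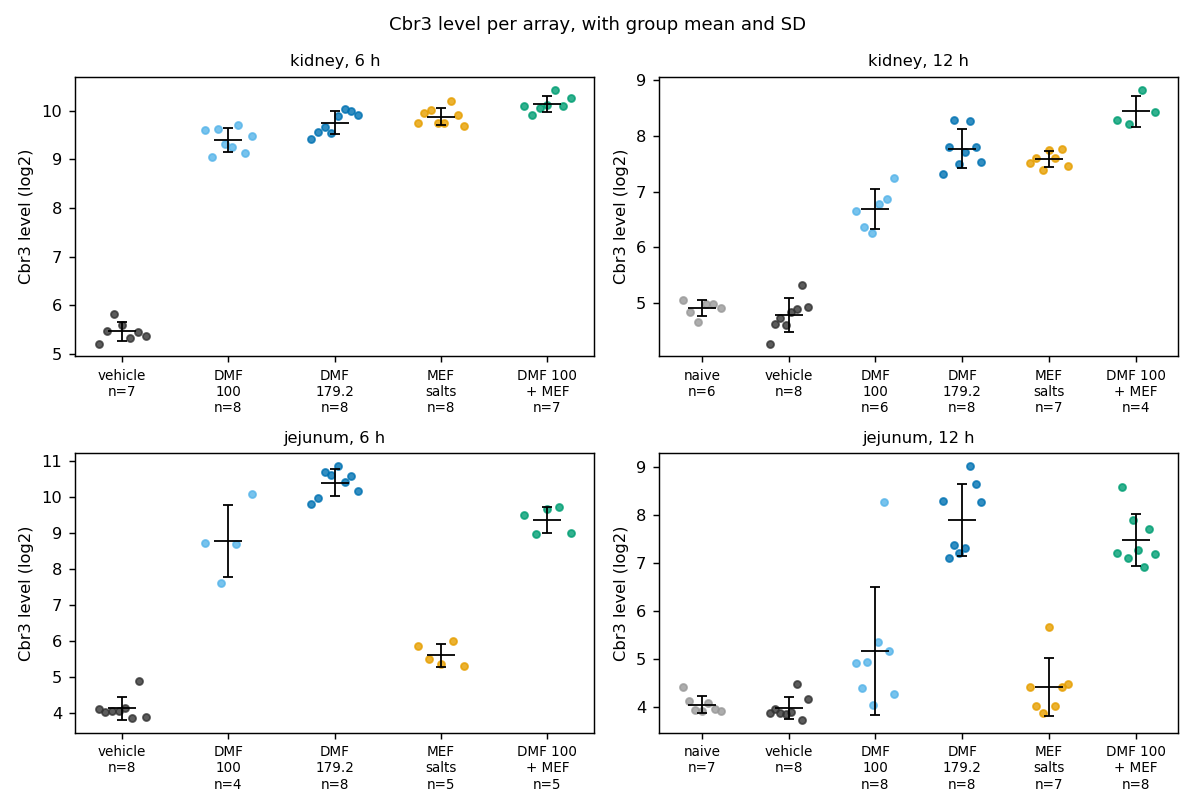
Log2 level of Cbr3 in each array of the kidney and jejunum at 6 and 12 h by treatment; dots are arrays, lines are means with SD. Kidney dosed arrays at 6 h sit between 9.04 and 10.43 and vehicle arrays between 5.21 and 5.82, while jejunum MEF arrays at 6 h sit between 5.30 and 6.01, and DMF+MEF arrays between 8.96 and 9.72.

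In the jejunum at 6 h the 8 vehicle arrays held Cbr3 at 3.87, 4.06 and 4.89, the highest being 1 array apart from the others. The 4 arrays of DMF 100 mg/kg were at 8.72, 7.62, 8.68 and 10.08, and the 8 of DMF 179.2 mg/kg at 9.79, 10.50 and 10.85. The 5 MEF arrays were at 5.86, 5.49, 5.36, 6.01 and 5.30, and the 5 DMF+MEF arrays at 9.49, 8.96, 9.65, 9.72 and 8.99. Every dosed array exceeded every vehicle array, and every MEF array was lower than every DMF+MEF array. The folds were 25, 76.1, 2.77 and 37.5 (log2 changes 4.64 ± 0.39, 6.25 ± 0.32, 1.47 ± 0.36 and 5.23 ± 0.36), where 2.61%, 8.62%, 1.19% and 6.57% of all genes were called. Of these arrays, 1 of DMF 100 mg/kg, 1 of MEF and 1 of DMF+MEF carried Umod, and without the 7 jejunum arrays that did the changes were 4.68, 6.25, 1.41 and 5.16. The change with MEF was 1.35 within shared places. DMF 100 mg/kg and MEF were given at different doses, so their values are set side by side without a comparison.

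By 12 h the jejunum values of Cbr3 had spread. Vehicle arrays gave 3.74, 3.90 and 4.49 (n = 8) and naive arrays 3.92, 3.97 and 4.42 (n = 7). DMF 179.2 mg/kg gave 7.10, 7.82 and 9.02 (n = 8), and DMF+MEF 6.92, 7.25 and 8.58 (n = 8), both clear of the vehicle range. DMF 100 mg/kg gave 4.06, 4.94 and 8.27 (n = 8), and MEF 3.88, 4.43 and 5.67 (n = 7), both overlapping vehicle. The highest array of DMF 100 mg/kg was 1 animal at 8.27, with the next at 5.36, and that animal also had the highest Cbr1 of its group, 12.23. The changes were 1.19 ± 0.32, 3.91 ± 0.32, 0.44 ± 0.33 and 3.50 ± 0.32, and 0.632%, 7.4%, 0.813% and 3.45% of all genes were called. Without the arrays with Umod, DMF 179.2 mg/kg changed by 3.99 and DMF+MEF by 3.54.

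Between dosed groups, Cbr3 in the kidney was higher with the higher DMF dose and with MEF added to DMF. The adjusted p-values of Cbr3 here and in the jejunum below are descriptive, since its response in both organs was known when it was chosen. At 12 h DMF 179.2 exceeded DMF 100 mg/kg by 1.08 ± 0.13 (adjusted p = 2.21e-07) and DMF+MEF exceeded DMF 100 mg/kg by 1.75 ± 0.16 (1.71e-12), MEF by 0.85 ± 0.15 (0.000459) and DMF 179.2 mg/kg by 0.67 ± 0.15 (0.0153). The shares of all genes called in these 4 comparisons were 0.55%, 4.26%, 2.23% and 0.433%. At 6 h the differences were smaller, at 0.36 ± 0.12 (0.046), 0.74 ± 0.13 (0.000136), 0.26 (0.307) and 0.38 ± 0.13 (0.0354), with 9.15%, 1.63%, 1.35% and 13.2% of genes called. The 6 h difference between DMF+MEF and MEF had a 95% interval of 0.01 to 0.52. The call of DMF 179.2 over DMF 100 mg/kg at 6 h was lost with place as a covariate (0.0599), and within shared places DMF+MEF exceeded DMF 179.2 mg/kg by 0.08 (0.538). At 12 h the same DMF+MEF call was lost without array 35 (0.54 log2) or 36 (0.67 log2) of its 4 arrays. Within shared places the higher DMF dose exceeded the lower by 0.56 (0.0889) at 6 h and 1.31 (0.224) at 12 h, and DMF+MEF exceeded DMF 179.2 mg/kg by 0.62 (1) at 12 h. All calls of Cbr3 between dosed groups were in the kidney and jejunum. Of the 10 that could be fitted within shared places, 2 remained.

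In the jejunum the largest of these differences of Cbr3 were those of DMF+MEF over MEF, at 3.76 ± 0.40 (1.1e-09) at 6 h and 3.06 ± 0.33 (2.62e-09) at 12 h, with no overlap between the groups at either time. At 12 h DMF 179.2 exceeded DMF 100 mg/kg by 2.72 ± 0.32 (5.23e-08) and DMF+MEF exceeded DMF 100 mg/kg by 2.31 ± 0.32 (1.09e-05). At 6 h DMF 179.2 exceeded DMF 100 mg/kg by 1.60 ± 0.39 (0.0437). The shares of all genes called were 0.158% and 0.0994% for DMF+MEF over MEF, 0.152% and 0.316% for the higher over the lower DMF dose at 12 and 6 h, and 0.0877% for DMF+MEF over DMF 100 mg/kg at 12 h. DMF+MEF differed from DMF 100 mg/kg at 6 h by 0.58, with an interval of -0.27 to 1.44, and from DMF 179.2 mg/kg by -1.02 (-1.75 to -0.29) at 6 h and -0.41 (-1.05 to 0.22) at 12 h, none of them called. The 6 h dose difference was lost without array 60 (1.22) or 61 of DMF 100 mg/kg and without the arrays with Umod (1.57, adjusted p = 0.0851). Fitted on the compared groups alone, the 12 h dose difference was not called (0.117), nor was DMF+MEF over DMF 100 mg/kg (0.322). Within shared places the higher DMF dose exceeded the lower by 2.16 (0.282) at 6 h and 3.73 (0.113) at 12 h, and at 12 h DMF+MEF exceeded DMF 100 mg/kg by 2.31 (0.185) and MEF by 3.16 (0.0675), none called.

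In the kidney the change of Cbr3 was smaller at 12 than at 6 h with every dosed group, and in the jejunum with both DMF doses. As above, the adjusted p-values of Cbr3 in these 2 organs are descriptive. In the kidney the change against vehicle fell by 2.02 ± 0.18 (adjusted p = 1.07e-12) with DMF 100 mg/kg, 1.30 ± 0.18 (8.9e-07) with DMF 179.2 mg/kg, 1.60 ± 0.18 (2.27e-09) with MEF and 1.01 ± 0.20 (0.0008) with DMF+MEF. The shares of all genes called for this contrast were 0.404%, 7.14%, 7.38% and 2.8%. In the jejunum it fell by 3.46 ± 0.50 (5.22e-05) with DMF 100 mg/kg and by 2.34 ± 0.45 (0.00134) with DMF 179.2 mg/kg, where 0.0175% and 3.15% of genes were called. The jejunum differences for MEF, -1.03 (-2.02 to -0.05), and DMF+MEF, -1.73 (-2.70 to -0.77), were not called. The jejunum call for DMF 100 mg/kg rested on 4 arrays at 6 h and was lost when only the compared groups were fitted (0.294). In the other organs none of the differences between times of Cbr3 was called.

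Outside the kidney and jejunum, Cbr3 moved by -0.14 to 0.53 in 40 comparisons. In the spleen at 6 h, DMF 179.2 mg/kg gave 5.97, 6.52 and 6.94 (n = 7) against 5.34, 5.96 and 6.29 (n = 8) with vehicle, a change of 0.53 ± 0.16 (0.0103). In the brain at 12 h, DMF 179.2 mg/kg gave 6.29, 6.51 and 7.01 (n = 8) against 5.95, 6.15 and 6.40 (n = 8), a change of 0.40 ± 0.10 (0.0213). Both pairs of groups overlapped. The brain call was lost with place as a covariate (0.31, adjusted p = 0.0883) and within shared places (0.09, adjusted p = 0.595). The spleen call was lost with place (0.45, adjusted p = 0.0843), within shared places (0.18, adjusted p = 0.84) and without the arrays carrying acinar or liver RNA (0.41, adjusted p = 0.217). In the brain 0.0117%, 7.2%, 0.123% and 0.105% of all genes were called at 6 h and 0.0234%, 1.31%, 0.0877% and 1.45% at 12 h. In the spleen the shares were 0.146%, 23%, 3.5% and 3.98% at 6 h and 0.0175%, 0.474%, 0.924% and 3.36% at 12 h.

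The nodes and blood gave no call for Cbr3. Its changes ran from -0.02 to 0.36 in the MLN at 6 h and -0.14 to 0.12 at 12 h, from -0.12 to 0.18 and 0.19 to 0.33 in the ILN, and from -0.01 to 0.45 and 0.06 to 0.30 in blood. In the MLN 0.0234%, 0.392%, 0.00585% and 0.181% of genes were called at 6 h and 0.0819%, 13.8%, 0.602% and 4.24% at 12 h. In the ILN the shares were 0.0292%, 0.234%, 0.00585% and 0.433% at 6 h and 1.27%, 12.3%, 1.05% and 3.53% at 12 h. In blood they were 0%, 0.0702%, 0% and 0.00585% at 6 h and 0.0351%, 0.322%, 0.00585% and 0.216% at 12 h. Nqo1, the quinone reductase gene often used as a marker of NRF2 activity, rose in the nodes nonetheless. In the MLN at 6 h it changed by 1.46, 2.60, 0.81 and 1.97, all called, and in the ILN at 6 h by 0.94, 1.76, 0.13 and 1.39, all but MEF called.

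Cbr1 rose in the kidney with every dosed group at both times. At 6 h its vehicle arrays lay at 12.00, 12.24 and 12.26 (n = 7). The dosed groups gave 12.44, 12.55 and 12.63 with DMF 100 mg/kg, 12.42, 12.48 and 12.57 with DMF 179.2 mg/kg, 12.45, 12.55 and 12.63 with MEF, and the same 12.45, 12.55 and 12.63 with DMF+MEF. Every dosed array exceeded every vehicle array, while the 4 dosed groups lay on top of one another. The changes were 0.36 ± 0.03 (2.19e-12), 0.31 ± 0.03 (1.44e-10), 0.36 ± 0.03 (1.14e-12) and 0.36 ± 0.04 (1.87e-12). None of the differences between dosed groups at 6 h was called: DMF 179.2 differed from DMF 100 mg/kg by -0.05 (-0.12 to 0.02), and DMF+MEF from MEF by 0.00 (-0.07 to 0.07).

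At 12 h Cbr1 in the kidney had vehicle values of 11.45, 11.58 and 11.68 (n = 8) and naive values of 11.57, 11.66 and 11.75 (n = 6). DMF 100 mg/kg gave 11.78, 11.83 and 11.87 (n = 6), DMF 179.2 mg/kg 11.76, 11.93 and 11.98 (n = 8), MEF 11.80, 11.88 and 11.97 (n = 7), and the 4 DMF+MEF arrays 12.02, 11.95, 12.06 and 12.06. Again no dosed array fell in the vehicle range. The changes were 0.27 ± 0.04 (3.9e-07), 0.35 ± 0.03 (1e-12), 0.32 ± 0.03 (1.18e-10) and 0.46 ± 0.04 (5.7e-14). DMF+MEF exceeded DMF 100 mg/kg by 0.19 ± 0.04 (0.00397), without overlap. Within shared places 5 of these kidney calls were lost. The changes there were 0.35 (0.0953), 0.26 (0.0704) and 0.38 (0.0541) at 6 h with DMF 100 mg/kg, DMF 179.2 mg/kg and DMF+MEF, and they were 0.29 (0.892) and 0.30 (0.112) at 12 h with the lower and higher DMF doses. The excess of DMF+MEF over DMF 100 mg/kg at 12 h was again 0.19 (0.0977).

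**Figure D3:**
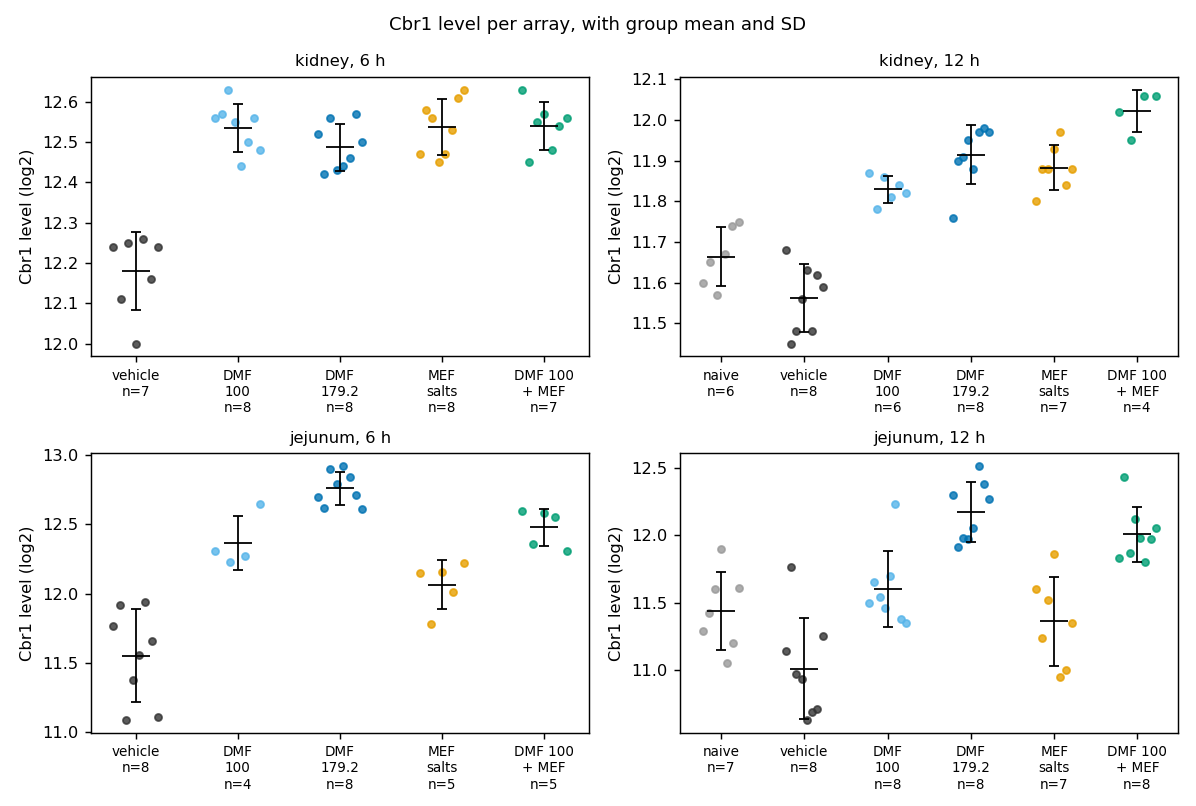
Log2 level of Cbr1 in each array of the kidney and jejunum at 6 and 12 h by treatment; dots are arrays, lines are means with SD. Kidney vehicle arrays at 6 h end at 12.26, below the lowest dosed array at 12.42, and jejunum vehicle arrays at 12 h run from 10.63 to 11.76.

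In the jejunum Cbr1 rose by more than in the kidney. At 6 h vehicle arrays gave 11.09, 11.61 and 11.94 (n = 8) and those of DMF 179.2 mg/kg 12.61, 12.75 and 12.92 (n = 8). The 4 arrays of DMF 100 mg/kg were at 12.31, 12.23, 12.27 and 12.65, the 5 of DMF+MEF at 12.60, 12.36, 12.58, 12.55 and 12.31, and the 5 of MEF at 12.15, 11.78, 12.16, 12.01 and 12.22. The 3 groups that received DMF lay above every vehicle array, and MEF overlapped vehicle. The changes were 0.81 ± 0.16 (0.00156), 1.21 ± 0.13 (1.14e-10), 0.51 ± 0.15 (0.0683) and 0.93 ± 0.15 (2.38e-05). MEF was called when dim genes were left out (0.0407) or without its array 79 (0.036), and DMF 100 mg/kg was not when only the compared groups were fitted (0.164). Without the arrays with Umod the 4 changes were 0.84, 1.21, 0.49 and 0.90. Within shared places DMF 179.2 mg/kg changed by 1.18 (0.0835).

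At 12 h Cbr1 in the jejunum had vehicle values of 10.63, 10.95 and 11.76 (n = 8), the 3 lowest being the arrays with the distal intestine genes. Naive arrays gave 11.05, 11.42 and 11.90 (n = 7). DMF 179.2 mg/kg gave 11.91, 12.16 and 12.51 (n = 8) and DMF+MEF 11.80, 11.97 and 12.43 (n = 8), both above the vehicle range, while DMF 100 mg/kg (11.35, 11.52 and 12.23, n = 8) and MEF (10.95, 11.35 and 11.86, n = 7) overlapped it. The changes were 0.59 ± 0.13 (0.0162), 1.16 ± 0.13 (9.69e-10), 0.35 ± 0.14 (0.215) and 0.99 ± 0.13 (1.96e-07). Without the arrays that held the distal intestine genes, DMF 100 mg/kg changed by 0.42 and was not called (0.25). DMF 179.2 exceeded DMF 100 mg/kg by 0.57 ± 0.13 (0.037), and DMF+MEF exceeded MEF by 0.64 ± 0.14 (0.0142). Within shared places these were 0.77 (0.167) and 0.50 (0.469), and the changes against vehicle were 0.46 (0.964) with DMF 100 mg/kg and 0.75 (0.566) with DMF+MEF.

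In other organs Cbr1 was called higher in 3 of 40 comparisons. In the MLN at 12 h it was above vehicle by 0.27 ± 0.07 (0.0029) with DMF 179.2 mg/kg, at 8.25, 8.42 and 8.76 against 8.02, 8.22 and 8.37 (n = 8 each), and by 0.22 ± 0.07 (0.0484) with DMF+MEF. Naive MLN arrays at 12 h ran from 8.17 to 8.55, overlapping both these dosed groups and vehicle. The shares of all genes called against vehicle in the MLN and spleen are printed with Cbr3 above. In the spleen at 6 h it rose by 0.26 ± 0.07 (0.00197) with DMF 179.2 mg/kg, from 8.52, 8.63 and 8.80 (n = 8) to 8.67, 8.97 and 9.06 (n = 7). The groups overlapped in all 3. The higher DMF dose also exceeded the lower in the spleen at 6 h, by 0.24 ± 0.07 (0.0275), and in the brain at 6 h, by 0.18 ± 0.05 (0.0193), where 5.52% and 8.02% of all genes were called. The DMF+MEF call in the MLN was lost with only the compared groups fitted (0.123). None of these calls stood within shared places: 0.30 (0.573) and 0.20 (0.455) in the MLN, 0.20 (0.572) and 0.33 (0.205) in the spleen, and 0.12 (0.241) in the brain. Brain, ILN and blood gave no call against vehicle, with changes of -0.05 to 0.13, -0.10 to 0.22 and -0.27 to 0.40.

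None of the 28 differences of Cbr1 between 12 and 6 h was called. They ran from -0.51 to 0.26 (adjusted p from 0.128 to 1). In the kidney they were -0.09, 0.05, -0.04 and 0.10, with the widest interval -0.01 to 0.21 for DMF+MEF. In the jejunum they were -0.22, -0.05, -0.16 and 0.07, with the widest -0.63 to 0.19 for DMF 100 mg/kg. Whether Cbr1 and Cbr3 differed in this respect was not tested.

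Cbr4 fell in the kidney at 6 h. Its vehicle arrays gave 9.47, 9.55 and 9.66 (n = 7). DMF 100 mg/kg gave 9.22, 9.32 and 9.54 (n = 8), DMF 179.2 mg/kg 9.05, 9.18 and 9.44 (n = 8), MEF 9.28, 9.42 and 9.56 (n = 8), and DMF+MEF 9.04, 9.17 and 9.38 (n = 7). The arrays of DMF 179.2 mg/kg and DMF+MEF lay wholly below the vehicle arrays. The changes were -0.24 ± 0.06 (0.00578), -0.37 ± 0.06 (6e-07), -0.13 ± 0.06 (0.189) and -0.37 ± 0.06 (3.07e-06), so MEF alone of the 4 was not called. Shares of all genes called against vehicle in each organ are printed with Cbr3 above. DMF+MEF was lower than MEF by -0.23 ± 0.06 (0.0253). At 12 h no kidney group was called, with changes of -0.06, -0.03, 0.06 and 0.06, and the change against vehicle was higher than at 6 h by 0.34 ± 0.08 (0.00353) with DMF 179.2 mg/kg and 0.43 ± 0.09 (0.00192) with DMF+MEF. Within shared places the 6 h changes with the lower and higher DMF doses were -0.29 (0.0733) and -0.36 (0.12), and DMF+MEF differed from MEF by -0.38 (0.128), none called.

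**Figure D4:**
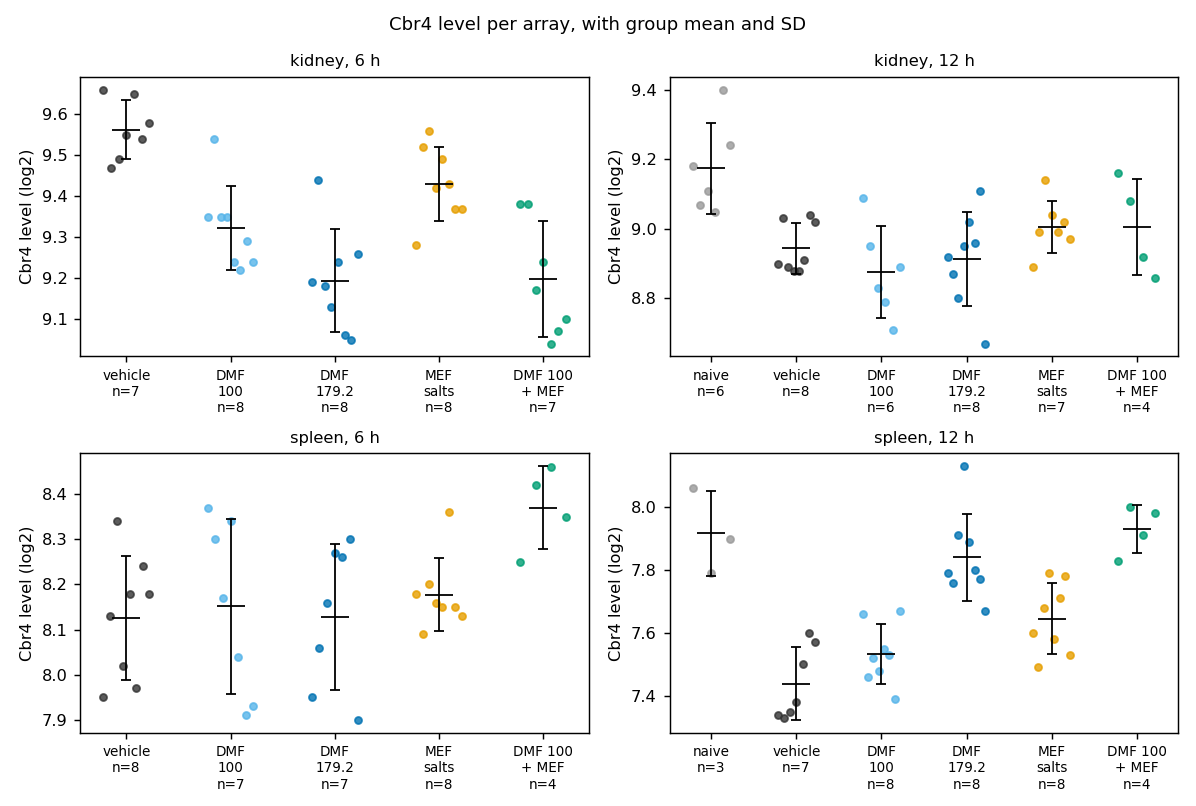
Log2 level of Cbr4 in each array of the kidney and spleen at 6 and 12 h by treatment; dots are arrays, lines are means with SD. In the kidney at 6 h DMF 179.2 mg/kg ends at 9.44 and vehicle starts at 9.47, and in the spleen at 12 h vehicle ends at 7.60, below the naive, DMF 179.2 mg/kg and DMF+MEF arrays.

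At 12 h Cbr4 was higher in the lymphoid organs and the jejunum with the highest DMF dose. In the spleen vehicle arrays gave 7.33, 7.38 and 7.60 (n = 7), DMF 179.2 mg/kg 7.67, 7.79 and 8.13 (n = 8), and the 4 DMF+MEF arrays 7.83, 8.0, 7.91 and 7.98, neither group overlapping vehicle. The changes were 0.40 ± 0.07 (0.000319) and 0.49 ± 0.08 (0.000108). DMF+MEF also exceeded DMF 100 mg/kg by 0.40 ± 0.08 (0.00406), where 0.971% of all genes were called, and the effect of DMF 179.2 mg/kg was 0.40 ± 0.09 (0.00593) higher at 12 than at 6 h, where 6.09% were. Without the arrays that carried acinar or liver RNA the difference from DMF 100 mg/kg was 0.36 (0.192). No vehicle array at 12 h was among those. Within shared places the change with DMF 179.2 mg/kg was 0.34 (0.997).

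Naive arrays were also above vehicle. The 3 naive spleens had Cbr4 at 8.06, 7.79 and 7.90, above all vehicle arrays and within the range of the DMF 179.2 mg/kg arrays. In the MLN DMF 179.2 mg/kg gave 7.86, 8.12 and 8.36 against 7.67, 7.79 and 8.05 with vehicle (n = 8 each), a change of 0.31 ± 0.09 (0.00701), and the naive arrays gave 7.95, 8.05 and 8.29. In the ILN it gave 8.15, 8.23 and 8.52 (n = 6) against 7.74, 7.91 and 8.10 in the 4 vehicle arrays, a change of 0.36 ± 0.12 (0.0414), with naive arrays at 7.96, 8.36 and 8.65. In the jejunum it gave 8.25, 8.40 and 8.56 (n = 8) against 8.04, 8.22 and 8.31 (n = 8), a change of 0.20 ± 0.06 (0.023), with naive arrays at 8.27, 8.34 and 8.50. With place as a covariate the MLN (0.23, adjusted p = 0.0769) and ILN (0.25, adjusted p = 0.234) calls were lost, and without the arrays holding distal intestine genes the jejunum call was lost (0.21, adjusted p = 0.11). The ILN call was also lost without vehicle array 1, 6 or 8. The changes within shared places were 0.32 (0.541) in the MLN, 0.28 (0.644) in the ILN and 0.18 (0.22) in the jejunum.

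Blood showed the numerically highest change of Cbr4 without a call. At 12 h DMF 179.2 mg/kg gave 6.35, 6.60 and 8.23 (n = 6) against 5.41, 6.23 and 6.41 (n = 7) with vehicle, a difference of 0.75 (adjusted p = 0.217). The groups overlapped, and 1 array at 8.23 stood apart from the next at 6.82.

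Vehicle itself stood below naive for Cbr1 and Cbr4. Of the 7 organs at 12 h, each of these genes was called lower in 5 and higher in none, and Cbr3 was called in none (-0.54 to 0.00). Cbr1 was lower by -0.27 in the ILN (0.0303), -0.43 in the jejunum (0.046), -0.10 in the kidney (0.0155), -0.21 in the MLN (0.0137) and -0.29 in the spleen (0.0119). The jejunum vehicle arrays lowest in Cbr1 at 12 h were those with the distal intestine genes, as given above. Cbr4 was lower by -0.20 in the brain (0.0492), -0.40 in the ILN (0.0141), -0.23 in the kidney (0.000963), -0.29 in the MLN (0.00661) and -0.47 in the spleen (6.73e-05). The share of all genes called between vehicle and naive was 46% in the kidney, 24.4% in the MLN, 18.3% in the spleen, 14.5% in the ILN, 5.44% in the jejunum, 2.56% in the brain and 0.269% in blood. Vehicle and naive animals held different places in the numbering, and with place as a covariate 2 organs were called for each gene. Within shared places 0 of the 5 calls remained for either gene, with Cbr1 at -0.62 to -0.03 and Cbr4 at -0.45 to -0.15.

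Other enzymes that reduce carbonyls were counted from a list of 29, of which 24 were measured. In the kidney at 6 h 4, 8, 5 and 7 of them were called higher and 0, 2, 1 and 2 lower, where 4.07%, 25%, 5.9% and 13.2% of all genes were called in either direction. At 12 h the counts were 4, 9, 9 and 9 higher and 0, 1, 3 and 4 lower, with 1.38%, 7.25%, 17.5% and 11% of all genes. Cbr2, a carbonyl reductase gene known from the lung, was called higher in 3 of the 56 comparisons with vehicle, by 0.26 and 0.30 in the kidney at 6 h with DMF 179.2 mg/kg and DMF+MEF and by 0.44 in the spleen at 6 h with DMF 179.2 mg/kg. The largest kidney changes with DMF 179.2 mg/kg at 6 h were those of the aldo-keto reductase genes Akr1c19 (1.56) and Akr1b8 (0.96) and of Nqo1 (1.49), all higher, while the retinal reductase gene Dhrs3 fell by 0.29. Akr1c14, an aldo-keto reductase gene for hydroxysteroids, fell by 0.97 with DMF+MEF at 12 h. The median change of the list with DMF 179.2 mg/kg at 6 h was 0.01, beside 0.00 for all genes.

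In the jejunum 5, 7, 5 and 6 of the 24 were called higher at 6 h, and 4, 8, 4 and 8 at 12 h, with 1 lower in all, under DMF+MEF at 6 h. The shares of all genes were 2.61%, 8.62%, 1.19% and 6.57% at 6 h and 0.632%, 7.4%, 0.813% and 3.45% at 12 h. With DMF 179.2 mg/kg at 6 h Akr1b8 rose by 4.85 ± 0.25, Akr1c19 by 3.28 ± 0.20, Nqo1 by 1.91 ± 0.10 and Akr1c13 by 1.67 ± 0.13. The list's median there was 0.11, beside 0.00 for all genes. In the spleen at 6 h 0, 8, 1 and 9 were called higher and 0, 1, 0 and 0 lower, beside 0.146%, 23%, 3.5% and 3.98% of all genes. At most 5 of the 24 were called in any comparison of the nodes, at most 1 in the brain and 0 in blood.

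The partner steps of Cbr4 were counted from a list of 10 genes of mitochondrial fatty acid synthesis, of which 9 were measured; Hsd17b8 was not analysed here. In the kidney at 6 h, where Cbr4 fell, 0, 2, 0 and 0 of the 9 were called higher and 1, 1, 1 and 2 lower, beside 4.07%, 25%, 5.9% and 13.2% of all genes. At 12 h the higher counts were 0, 0, 1 and 0 and the lower counts 0, 0, 2 and 1. Ppt2, a thioesterase gene on this list, fell by 0.21 with DMF 179.2 mg/kg and by 0.47 with DMF+MEF at 6 h. In the spleen at 6 h 6 of the 9 were called higher with DMF 179.2 mg/kg, among them Acsf3 (0.53), a malonyl-CoA synthetase gene, and Ppt2 (0.40), where 23% of all genes were called. At 12 h, where Cbr4 rose in the spleen, 0 and 1 were called higher with DMF 179.2 mg/kg and DMF+MEF.

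A list of 20 known NRF2 targets, 18 of them measured, was counted in the same comparisons, beside the shares of all genes given above. In the kidney 15, 16, 16 and 17 were called higher at 6 h and 9, 12, 11 and 14 at 12 h, with none lower. In the jejunum the counts were 10, 15, 1 and 10 at 6 h and 5, 11, 1 and 8 at 12 h. In the spleen they were 3, 14, 4 and 9 at 6 h, with 1 lower under DMF 179.2 mg/kg where 23% of all genes were called, and 1, 2, 1 and 2 at 12 h. In the MLN they were 2, 10, 1 and 7 at 6 h and 2, 7, 0 and 4 at 12 h, and in the ILN 2, 6, 0 and 6 at 6 h and 2, 4, 1 and 2 at 12 h, each node with 1 lower under DMF 179.2 mg/kg at 12 h. In the brain they were 0, 4, 0 and 0 at 6 h and 0, 2, 0 and 2 at 12 h, and in blood 1 was called in each of 2 comparisons. The median changes at 6 h were 0.63, 0.81, 0.69 and 0.92 in the kidney and 0.45, 0.62, 0.18 and 0.44 in the jejunum, beside 0.00 or -0.00 for all genes.

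The genes beside Cbr1 and Cbr3 on chromosome 16 run in the order Clic6, Runx1, Setd4, Cbr1, Cbr3, Dop1b and Morc3 among those measured, with Setd4 on the opposite strand next to Cbr1, per the RefSeq gene table of GRCm38.p6. Setd4, which encodes a SET domain protein methyltransferase, was called higher than vehicle in 16 of 56 comparisons and lower in none. The shares of all genes called in these comparisons are printed with Cbr3 above. In the kidney at 6 h its vehicle arrays gave 7.18, 7.56 and 7.66, and DMF 179.2 mg/kg gave 8.04, 8.45 and 8.92, without overlap. The kidney changes were 0.73 ± 0.12 (6.33e-06), 0.99 ± 0.12 (3.8e-10), 0.62 ± 0.12 (0.000122) and 0.79 ± 0.12 (6.47e-07) at 6 h, and 0.46, 0.92, 0.51 and 0.89 at 12 h. Naive means at 12 h lay above vehicle. In the kidney they were 6.56 and 6.22, with dosed means of 6.69, 7.14, 6.73 and 7.11. Naive, vehicle and DMF 179.2 mg/kg means were 8.64, 8.17 and 8.60 in the MLN, 8.88, 8.43 and 8.89 in the ILN, and 6.28, 6.15 and 6.82 in the jejunum. In the jejunum at 6 h the changes of Setd4 against vehicle were 1.01 ± 0.19, 1.34 ± 0.16, 0.41 (not called) and 1.03 ± 0.18. Vehicle arrays there ranged from 6.36 to 7.34, and DMF 179.2 mg/kg gave 7.71, 8.30 and 8.58. Setd4 had 3 probe sets, and they were called higher in 15, 14 and 16 comparisons, in the kidney 7, 6 and 8 of 8. Within shared places 3 of the 49 comparisons that could be fitted were called, and all 12 calls of the fit to all arrays kept their direction.

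**Figure D5:**
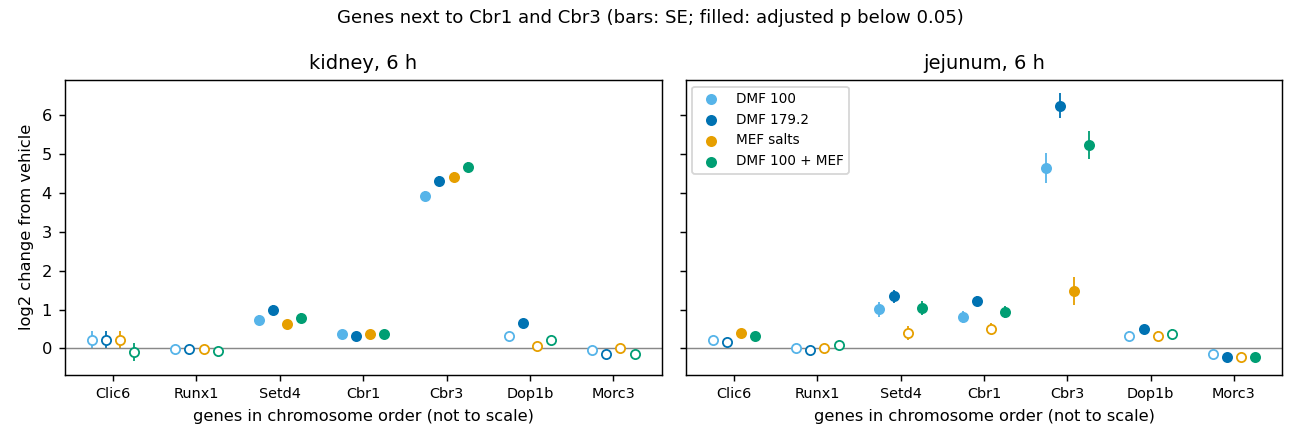
Log2 change against vehicle at 6 h, with standard error, of Cbr1, Cbr3 and the measured genes beside them in chromosome order, in kidney and jejunum for the 4 dosed groups; filled points mark an adjusted p below 0.05. Setd4 reaches 0.99 in the kidney and 1.34 in the jejunum with DMF 179.2 mg/kg, while the highest change of Clic6 is 0.41. Filled points of Cbr3 are not read as a test.

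Beyond Cbr3, Dop1b was called higher in 4 comparisons, all with DMF 179.2 mg/kg: kidney at 6 h (0.66), jejunum at 6 h (0.50), spleen at 6 h (0.49) and MLN at 12 h (0.51). Morc3, which encodes a nuclear ATPase, was called lower in 10, by changes of -0.33 to -0.20. Clic6 and Runx1 were called higher in 3 each. Among the genes beside Cbr4 on chromosome 8, Sh3rf1 was called higher in 3 and lower in 2, Palld higher in 1 and lower in 4, Clcn3 and Ddx60 lower in 1 each, and Anxa10 in none. The shares of all genes called against vehicle are printed with Cbr3 above, and these counts were not tested against them. For Dop1b the comparisons include the kidney and spleen at 6 h with DMF 179.2 mg/kg, where those shares were highest.

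The genes most like each member were ranked by Pearson's r over all arrays, each value taken from the mean of its organ and time. The arrays share treatments and animals, so these are descriptions. Over 550 arrays Cbr3 was most like Akr1c19 (0.86), Ugt2b5 (0.84), Akr1b8 (0.80), Ces1g (0.78) and Abcc2 (0.76). Over 77 kidney arrays it was most like Txnrd1, Nqo1, Gstp1, Pgd (0.96 each) and Gsta4 (0.95), and over 76 jejunum arrays Nqo1 (0.94), Akr1b8 (0.93), Ugt2b35 (0.93), Akr1c19 (0.92) and Gstm1 (0.92). Cbr1 was most like Gstm1 (0.72), Akr1b8, Ugt2b35 and Gstm4 (0.69 each) and Cbr3 (0.68). For Cbr4 the closest were Slc30a6 (0.47), Zfp870 (0.43), Ddhd2 (0.42), Samm50 (0.40) and Fibp (0.40), none above 0.47. By Spearman's rank over all organs 0 of the 5 closest genes of Cbr3 were shared with these, and 2 of 5 each for Cbr1 and Cbr4, and for Cbr3 1 of 5 was shared in the kidney and 4 of 5 in the jejunum.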

How the data were processed

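The values that the authors deposited are log2 summaries per probe set. Per the submitters' processing notes, the authors used RMA, GCRMA, R 2.11.1 and limma 3.4.5, with no role or order given. No genome build is given in the sources used here. Of 45141 probe sets, 104 were controls, 28898 had 1 gene, 551 several and 15588 none here. Those with 1 gene gave 17097 genes, each by its probe set of highest mean in the organ, and the members had 1 probe set each. Lists were matched by symbol or synonym, and the marker Si, an old name of another gene, was left unmatched.

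Arrays were grouped by organ, time and treatment. In each organ limma 3.58.1 (R 4.3.3, with data.table, version 1.17.8) fitted 1 mean per group with moderated variances, and 2-sided p-values were Benjamini-Hochberg adjusted within a contrast over all genes, with 0.05 as the threshold. Precision is limited by the number of arrays, and 18.54 to 25.49 percent of values of a set lie at its floor. Tables were read with pandas 2.3.3 and numpy 2.4.6 under Python 3.11.15, and plots were drawn with matplotlib 3.10.9.

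Named genes are the members, the 5 genes most like each, up to 4 called genes of a list per contrast, Nqo1, Akr1b8 and Hsd17b8, and chromosome neighbours. The members and lists were chosen with earlier results of these data known. The results were also computed after a further quantile normalization, with dim genes left out, trend and robust variance, only the groups compared, the mean of a gene's probe sets, place in runs of 12 animal numbers as a covariate, only those spans of 4 places in which both groups had 2 arrays or more, each array in turn left out where a group held 5 or fewer, and leaving out jejunum arrays with Hox genes above 6 or spleen arrays with acinar genes 2 above the lowest array or Alb above 8. Leaving out jejunum arrays with Umod above 4 and using each Setd4 probe set were added after the data had been seen. The steps were tested on simulated data.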

Additional observations from a re-analysis of the deposited data

Results flagged for a closer look

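In 228 tests, 1 for each of the 3 genes in each group of 4 to 10 arrays, 29 found 1 array far from the others of its group, and chance gives about 1 in 20. Values are log2, with the nearest other array in parentheses.

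For Cbr1 these were brain at 12 h DMF 100 mg/kg 9.27 (9.59) and MEF 9.81 (9.68), brain at 6 h DMF+MEF 10.03 (10.19), jejunum at 12 h DMF 100 mg/kg 12.23 (11.70), kidney at 12 h DMF 179.2 mg/kg 11.76 (11.88), and spleen vehicle at 12 h 8.76 (8.39) and MEF at 6 h 8.61 (8.78).

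For Cbr3 they were ILN MEF at 6 h 5.06 (5.48), jejunum at 12 h DMF 100 mg/kg 8.27 (5.36) and MEF 5.67 (4.49), jejunum vehicle at 6 h 4.89 (4.13), MLN vehicle at 6 h 6.31 (5.87) and spleen DMF+MEF at 12 h 6.39 (5.80). The jejunum array at 8.27 is the same animal as the Cbr1 array at 12.23. In blood, where most arrays share 1 background value, small gaps are enough: at 12 h DMF 100 mg/kg 3.07 (3.07), DMF 179.2 mg/kg 4.35 (3.18), MEF 3.06 (3.07), DMF+MEF 3.46 (3.11), naive 2.77 (3.07) and vehicle 2.66 (3.06), and at 6 h DMF 100 mg/kg 5.17 (4.13), DMF+MEF 3.28 (3.24) and vehicle 3.31 (3.24).

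For Cbr4 they were brain DMF+MEF at 12 h 8.26 (8.02), jejunum naive at 12 h 8.50 (8.36) and vehicle at 6 h 8.95 (8.69), kidney DMF 100 mg/kg at 6 h 9.54 (9.35), MLN MEF at 6 h 8.16 (8.42), spleen MEF at 6 h 8.36 (8.20) and blood DMF 179.2 mg/kg at 12 h 8.23 (6.82). The jejunum vehicle animal at 8.95 is also the one whose Cbr3 was 4.89.

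The effect at 12 h differed from that at 6 h, by limma's test of the difference, in 9 cases. For Cbr3 these were -2.02, -1.30, -1.60 and -1.01 in the kidney and -3.46 and -2.34 in the jejunum with DMF 100 and 179.2 mg/kg. The response of Cbr3 in both organs was known when it was chosen. For Cbr4 they were 0.34 and 0.43 in the kidney with DMF 179.2 mg/kg and DMF+MEF, and 0.40 in the spleen with DMF 179.2 mg/kg.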

How the results depend on the processing

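No result reversed under the alternatives run. When only the groups compared were fitted, calls between dosed groups numbered 2 in place of 5 for Cbr1, 6 in place of 12 for Cbr3 and 1 in place of 2 for Cbr4, those of Cbr4 between times 5 in place of 3, and those against naive 0 for Cbr1 and 3 for Cbr4 in place of 5 each. With place as a covariate, calls against naive were 2 for each of Cbr1 and Cbr4. Calls of Cbr4 between dosed groups were 4 with dim genes left out, 4 after quantile normalization and 1 without the spleen arrays with acinar or liver genes, and quantile normalization gave 1 call of Cbr3 against naive, where there had been 0.

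Shared places, which use fewer arrays, ended most calls: of those that could be fitted against vehicle, 3 of 14 of Cbr1 and 1 of 7 of Cbr4 remained. The count of Cbr3 against vehicle is left out, since its changes in the kidney and jejunum are described without a test. Between dosed groups 0 of 5 of Cbr1, 2 of 10 of Cbr3 and 1 of 2 of Cbr4 remained, and against naive 0 of 5 for each of Cbr1 and Cbr4. All kept their direction. Leaving out 1 array of a small group kept 87 of 104 results on the same side of the threshold, with 16 lost and 1 gained. The cause of these losses was not tested. No other probe set of a member could be tried, since each has 1. Cross-hybridisation with related copies was not tested. No paired analysis was possible because the groups compared in an organ hold different animals and share no animal number.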
